A study of Arabidopsis thaliana with 4 samples.

Results

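The 10 genes described here are regulators of the endosperm, the nourishing tissue of the seed, and of genomic imprinting, the expression of a gene from the maternal or the paternal copy alone. They were picked by locus identifier, with the gene models of a locus added together, and make up 10 of the 27206 loci in the expression tables. The RNA-Seq experiment asked which processes the MADS-box transcription factor SEEDSTICK (STK) controls, and compared 2 biological replicates of the stk mutant (genotype stk-/-, with the stk-2 insertion near a splice site as the allele named in the methods) with 2 of wild-type Arabidopsis thaliana, ecotype Columbia. Plants of both genotypes were grown at 22 °C under short days of 8 h light or long days of 16 h light, and RNA came from whole inflorescences and siliques up to 5 days after pollination (DAP). Which day length each library had was not given in the sources used here. Such samples pool sepals, petals, anthers and pistils with young seeds, so a lower level can mean fewer cells of a type or less RNA per cell, which cannot be told apart.

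The endosperm forms when a sperm cell fertilizes the central cell of the ovule. Before fertilization its growth is held back by a Polycomb repressive complex of the FERTILIZATION-INDEPENDENT SEED class (FIS-PRC2), which places a repressive methyl mark on histone H3. MEDEA (MEA) is its catalytic subunit, FERTILIZATION INDEPENDENT SEED 2 (FIS2) a zinc-finger subunit, and FERTILIZATION INDEPENDENT ENDOSPERM (FIE) and MULTICOPY SUPPRESSOR OF IRA 1 (MSI1) are WD40 proteins that other Polycomb complexes share. FLOWERING WAGENINGEN (FWA) is a homeodomain factor expressed from the maternal copy in endosperm. PHERES1 (PHE1) and AGAMOUS-LIKE 62 (AGL62) are type I MADS-box factors of the early endosperm, the first a target of the complex and the second needed to keep the endosperm from forming cell walls too early. HAIKU1 (IKU1), a VQ-motif protein, HAIKU2 (IKU2), a leucine-rich repeat receptor kinase, and MINISEED3 (MINI3), a WRKY factor listed in the reference as WRKY10, act in a pathway that promotes endosperm growth and seed size.

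Stretches of the reference genome (RefSeq assembly TAIR10.1) are shown for some of the members. Whether they affect expression was not tested. FWA is given with the 250 bases before its annotated start, at chr4:13038110-13038359 on the plus strand, because this stretch holds a direct repeat of 38 bases, in capitals. The copies begin 45 bases apart, 111 and 66 bases before the start.
FWA: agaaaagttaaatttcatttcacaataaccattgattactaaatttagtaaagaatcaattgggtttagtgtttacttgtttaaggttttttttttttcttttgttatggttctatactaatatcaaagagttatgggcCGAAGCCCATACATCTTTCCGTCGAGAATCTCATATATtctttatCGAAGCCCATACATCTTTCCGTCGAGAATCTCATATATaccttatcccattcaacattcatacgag
STK belongs to the MADS family, whose members bind CArG boxes, here CC, then 6 letters that are A or T, then GG. IKU2 was the 1 member of 10 with such a box (capitals) in the 250 bases before its start, on the plus strand at chr3:6843412-6843661, against 2.5% of 27406 windows of the same length. A relaxed pattern was in 5 of 10 members and 15.9% of these windows. For the genes it studied, the paper searched longer upstream stretches, the gene and sequence after it, and allowed a mismatch. The search here was narrower.
IKU2: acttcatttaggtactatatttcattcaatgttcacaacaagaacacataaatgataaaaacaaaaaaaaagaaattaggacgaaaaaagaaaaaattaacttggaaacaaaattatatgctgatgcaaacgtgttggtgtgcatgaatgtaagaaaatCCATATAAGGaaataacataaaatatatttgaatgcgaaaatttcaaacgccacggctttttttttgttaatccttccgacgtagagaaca
MINI3 is a WRKY factor, and WRKY factors bind the core TTGAC. The core (capitals, either strand) stood in the windows of 7 of 10 members and in 44.7% of all windows. MINI3 itself has 2 copies at chr1:20776295-20776544 and PHE1 has 2 at chr1:24267337-24267586, both on the minus strand.
MINI3: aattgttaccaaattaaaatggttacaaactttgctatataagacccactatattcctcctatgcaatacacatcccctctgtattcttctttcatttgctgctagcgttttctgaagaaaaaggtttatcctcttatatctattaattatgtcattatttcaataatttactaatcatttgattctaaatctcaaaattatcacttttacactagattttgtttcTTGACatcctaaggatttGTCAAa
PHE1: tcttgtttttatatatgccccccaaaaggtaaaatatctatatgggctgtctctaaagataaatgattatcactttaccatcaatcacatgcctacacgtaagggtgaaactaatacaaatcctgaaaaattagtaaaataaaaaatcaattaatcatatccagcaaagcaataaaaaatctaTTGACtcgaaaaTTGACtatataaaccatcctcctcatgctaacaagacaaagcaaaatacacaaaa
These matches describe the letters only. PHE1 and its neighbour PHE2 lie 10399 bases apart on chromosome 1, and their coding sequences were 85.9% identical over 852 aligned columns. The first 150 coding bases of each are shown, with the 23 differing bases in capitals, since this likeness bears on which of the pair a short read is given to.
PHE1 coding start: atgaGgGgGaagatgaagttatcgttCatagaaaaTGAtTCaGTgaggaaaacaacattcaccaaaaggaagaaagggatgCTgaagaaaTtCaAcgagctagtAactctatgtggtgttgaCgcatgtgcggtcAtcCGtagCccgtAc
PHE2 coding start: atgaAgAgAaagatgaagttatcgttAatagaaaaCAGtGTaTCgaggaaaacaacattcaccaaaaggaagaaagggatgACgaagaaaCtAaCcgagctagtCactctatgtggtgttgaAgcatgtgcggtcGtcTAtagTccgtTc
Of 791 stretches of 50 bases in PHE1 exons, 17.3% fitted another place in the genome with at most 2 mismatches, 104 of them in PHE2. For FIS2 the share was 6.65%, and for the other 8 members it was 0.

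Levels are given as RPKM, read counts scaled to the exon length of the gene and to the mapped reads of the library. The 4 libraries held 30563962 and 33672721 reads in stk, against 16965821 and 21074833 in wild type, as recovered from the steps between RPKM values, so the wild-type values of weakly expressed genes rest on fewer reads. The file header placed stk replicate 1 on lane 7 and the other libraries on lane 1. STK, the mutated gene, was at 7.91 and 7.96 RPKM in stk, against 38.7 and 40.9 in wild type, which fits the labels of all 4 libraries. Intervals quoted below are exact 95% Poisson intervals, which cover counting error only. Tests compared log2(RPKM + 1) by limma with Benjamini-Hochberg adjustment over the 19044 loci with a mean of at least 1 RPKM, and differences on this scale understate the change of weakly expressed genes.

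On the log2(RPKM + 1) scale the largest differences among the members were those of the type I MADS-box genes, while the Polycomb subunits expressed throughout the plant differed little. PHE1 averaged 4.69 ± 0.47 RPKM in stk and 2.41 ± 1.23 in wild type, and AGL62 averaged 1.85 ± 0.57 in stk and 0.963 ± 0.48 in wild type (SD, n = 2 each). By the ratio of means, MINI3 (1.97) stood beside PHE1 (1.95) and AGL62 (1.92). No member passed the limma test at an adjusted p of 0.05, and neither did any other locus (0%, 0 of 19044), although 1749 loci had an unadjusted p under 0.05. Of the 6 members above the level filter, which AGL62 passed through its level in stk, 1 (PHE1) had an unadjusted p under 0.05 with stk higher, against 5.66% of all loci tested, and none with stk lower, against 3.53%. None met the thresholds of the study applied to the limma p, an unadjusted p of at most 0.05 with a 2-fold ratio, which 3.1% of loci met with stk higher and 0.326% with stk lower. For 4 of the 10 members the lower stk value exceeded the higher wild-type value, FWA, PHE1, AGL62 and MINI3, against 17.3% of the 25095 loci with any reads. The opposite order was found for 0 members and for 23.7% of those loci. These shares vary with level. Among loci with a mean of at least 1 RPKM they were 16.3% with stk higher and 26.8% with stk lower. Shares of the weakly expressed loci alone were not counted. When stk replicate 1, the library of another lane, was left out, the count with stk higher was again 4 of 10, against 22.2% of loci. It was 7 of 10 without stk replicate 2, against 38.8%, 4 of 10 without wild-type replicate 1, against 34.4%, and 6 of 10 without wild-type replicate 2, against 25.7%. The median log2 difference was 0.14 over all 10 members and -0.03 over the loci with any reads. For a single gene, an exact permutation test of 2 against 2 libraries cannot give a p under 0.333.

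**Figure D1:**
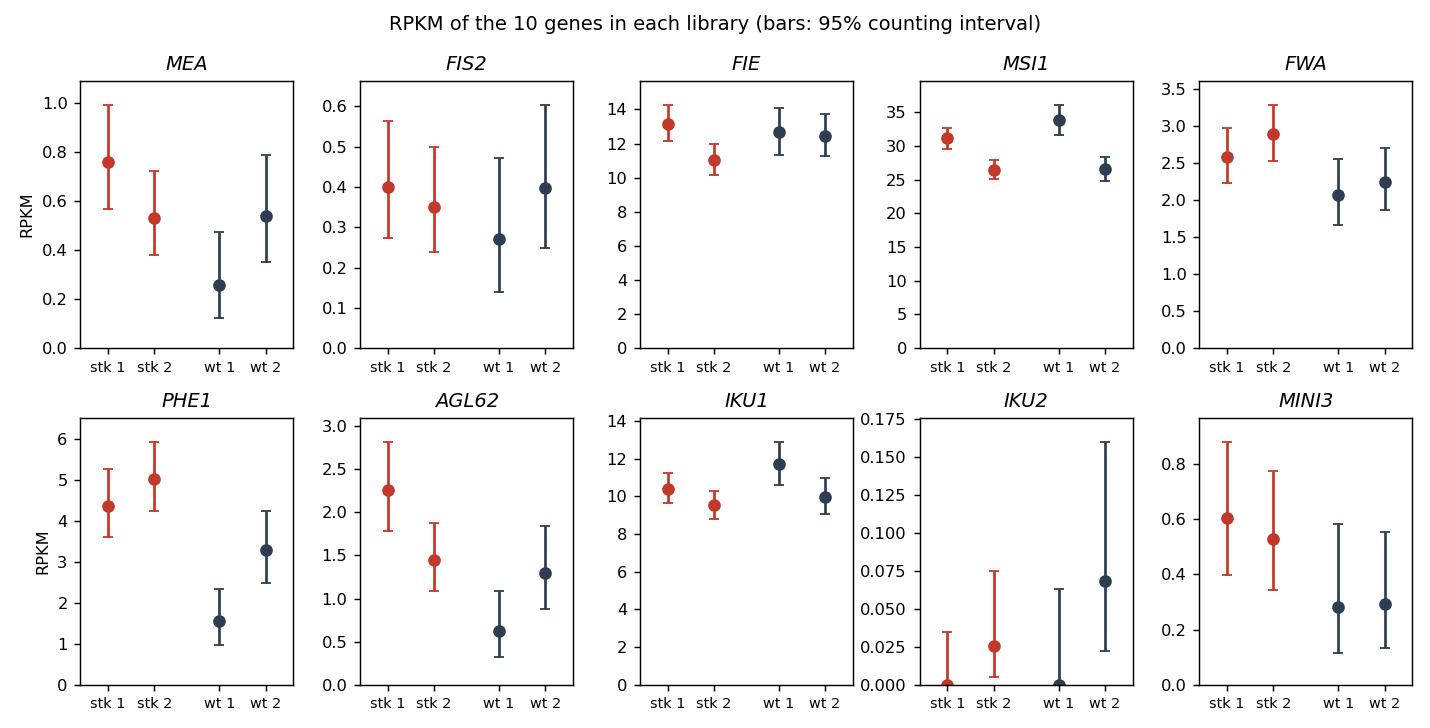
RPKM of each of the 10 genes (vertical axes, one scale per gene) in stk replicates 1 and 2 (red, left) and wild-type replicates 1 and 2 (dark, right), with exact 95% Poisson counting intervals as bars. The stk points lie above the wild-type points for FWA, PHE1, AGL62 and MINI3, and wild-type replicate 1 is the lowest library for MEA, FIS2, FWA, PHE1, AGL62 and MINI3.

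Within FIS-PRC2, the subunits with a role restricted to the seed were weakly expressed and the shared WD40 subunits strongly. MEA (AT1G02580, chr1:544783-549202) was at 0.757 and 0.532 RPKM in stk, against 0.257 and 0.539 in wild type, from 53 and 41 reads in stk and 10 and 26 in wild type. The groups overlapped, and wild-type replicate 1 lay lowest. FIS2 (AT2G35670, chr2:14992565-14996756) was at 0.399 and 0.351 RPKM in stk, against 0.270 and 0.398 in wild type. Its libraries overlapped too, with counting intervals as wide as 0.139 to 0.471 RPKM in wild-type replicate 1. MEA and FIS2 had means of 0.521 and 0.355 RPKM over the 4 libraries and stayed under the level filter of the main test. With a filter at a mean of 0.1 RPKM their log2 differences were 0.24 (limma adjusted p = 0.691) and 0.05 (limma adjusted p = 0.934).

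FIE (AT3G20740, chr3:7248809-7252452) was at 13.2 and 11.02 RPKM in stk, against 12.7 and 12.4 in wild type. Both wild-type values fell between the stk values. The log2 difference was -0.06 with a standard error of 0.15 (limma adjusted p = 0.925). MSI1 (AT5G58230, chr5:23556012-23558245), which also serves in chromatin assembly, was the member with the highest level. It was at 31.1 and 26.5 RPKM in stk, against 33.8 and 26.6 in wild type. The spread within each genotype exceeded the difference between them, which was -0.06 on the log2 scale with a standard error of 0.18 (limma adjusted p = 0.934). The sign of these differences changed for FIE without stk replicate 2 (0.06) and for MSI1 without stk replicate 2 (0.05) or wild-type replicate 1 (0.11). From end to end, introns included, the FIE model overlaps a neighbouring gene model by 337 bases, that of MSI1 by 132 and that of FIS2 by 44. How much of this overlap is exon was not counted. Reads from any shared exon bases cannot be told apart because strand use was not stated.

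Of the Polycomb subunits outside the members, all 4 that were listed passed the level filter, with a median log2 difference of -0.07. None had an unadjusted limma p under 0.05, against 5.66% of all loci tested with stk higher and 3.53% with stk lower. CURLY LEAF (CLF), a catalytic subunit related to MEA, was the 1 subunit of 4 with stk lower without overlap, an order that 26.8% of all tested loci showed. It was at 7.47 and 8.16 RPKM in stk, against 10.11 and 8.54 in wild type, with a log2 difference of -0.22 (limma adjusted p = 0.676). The other subunits overlapped between genotypes. SWINGER (SWN), another such catalytic subunit, was at 22.3 and 20.7 RPKM in stk, against 20.6 and 21.3 in wild type. EMBRYONIC FLOWER 2 (EMF2), a relative of FIS2, was at 16.5 and 16.2 in stk, against 18.9 and 16.4 in wild type. VERNALIZATION 2 (VRN2), another, was at 13.3 and 13.1 in stk, against 14.3 and 12.9 in wild type.

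FWA (AT4G25530, chr4:13038360-13042443), whose upstream repeat is printed above, was at 2.58 and 2.89 RPKM in stk, against 2.07 and 2.25 in wild type, from 193 and 238 reads in stk and 86 and 116 in wild type. The stk libraries were the higher ones without overlap, by a ratio of 1.27. The log2 difference was 0.24 with a standard error of 0.14 and did not pass the test (limma adjusted p = 0.636). With any 1 library left out the difference stayed between 0.18 and 0.30.

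DNA methylation keeps FWA silent outside the endosperm, and the DNA glycosylase DEMETER (DME) removes it in the central cell. All 8 genes of this machinery that were listed passed the level filter. None had an unadjusted limma p under 0.05, against 5.66% of all loci tested with stk higher and 3.53% with stk lower. For 6 genes both stk libraries lay below both wild-type libraries, an order that 26.8% of all tested loci showed. The opposite order was found for 0 of the 8 and for 16.3% of tested loci. Their median log2 difference was -0.20, against -0.05 over all loci. The structure-specific recognition protein SSRP1, which DME needs at FWA, was at 40.0 and 37.0 RPKM in stk, against 45.7 and 42.0 in wild type. The demethylase REPRESSOR OF SILENCING 1 (ROS1) was at 28.5 and 29.4 in stk, against 29.96 and 36.5 in wild type. VARIANT IN METHYLATION 1 (VIM1), which assists the maintenance methyltransferase, was at 18.0 and 16.2 in stk, against 23.8 and 19.0 in wild type.

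Of the other imprinted genes, 7 of 10 passed the level filter, 6 of 10 had stk libraries above wild type without overlap, against 17.3% of loci with any reads, 0 had them below, against 23.7%, and the median log2 difference of all 10 was 0.31, against -0.03. HOMEODOMAIN GLABROUS 9 (HDG9), a homeodomain factor of the class of FWA, was at 2.12 and 1.65 RPKM in stk, against 0.820 and 1.298 in wild type. It was the 1 gene of the 7 tested with an unadjusted p under 0.05 (limma unadjusted p = 0.0356, adjusted p = 0.515). With stk higher, 5.66% of all loci tested had such a p. The paternally expressed PEG2 was at 6.27 and 5.55 in stk, against 6.26 and 5.88 in wild type. FORMIN HOMOLOGY 5 (FH5), an actin-nucleating protein, was at 5.26 and 4.98 in stk, against 5.28 and 5.15 in wild type. HDG8 was at 2.20 and 2.65 in stk, against 1.66 and 1.94 in wild type.

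PHE1 (AT1G65330, chr1:24266481-24267320) was at 4.36 and 5.02 RPKM in stk, against 1.54 and 3.28 in wild type, from 112 and 142 reads in stk and 22 and 58 in wild type. The groups did not overlap, but the wild-type libraries stood apart from each other, with counting intervals of 0.967 to 2.34 RPKM in replicate 1 and 2.49 to 4.24 in replicate 2. The log2 difference was 0.78 with a standard error of 0.26 (limma unadjusted p = 0.027, adjusted p = 0.514), and the ratio of means was 1.95. Without wild-type replicate 1 the difference was 0.41, and without wild-type replicate 2 it was 1.16. Without stk replicate 1 it was 0.87, and without stk replicate 2 it was 0.70. Each of these rests on 1 library in a genotype. PHE2, which takes some of the same reads, was at 1.13 and 1.38 RPKM in stk, against 0.986 and 1.08 in wild type, with a log2 difference of 0.15 (limma adjusted p = 0.759).

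AGL62 (AT5G60440, chr5:24306294-24307716) was at 2.26 and 1.44 RPKM in stk, against 0.625 and 1.301 in wild type, from 78 and 55 reads in stk and 12 and 31 in wild type. In stk, replicate 2 lay just above wild-type replicate 2, and their counting intervals of 1.09 to 1.88 and 0.884 to 1.85 RPKM overlapped for the most part. The log2 difference was 0.54 with a standard error of 0.23 (limma unadjusted p = 0.0618, adjusted p = 0.565). It was 0.75 without stk replicate 2 and 0.29 without wild-type replicate 1, each resting on 1 library in that genotype.

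**Figure D2:**
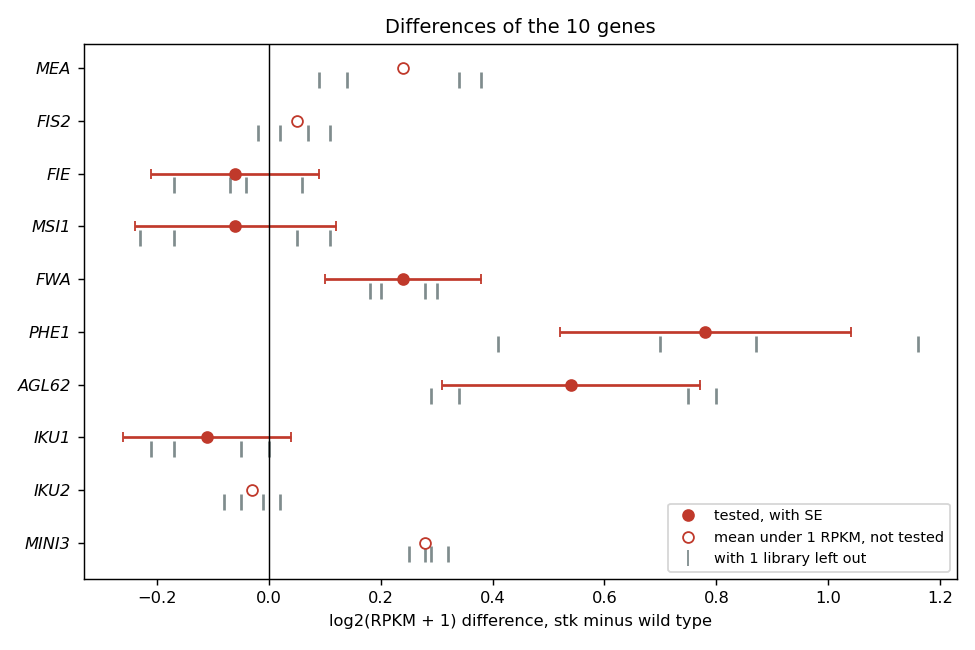
Difference in log2(RPKM + 1), stk minus wild type (horizontal axis), for each of the 10 genes, as filled points with standard errors for the 6 tested genes, as open points for the 4 with a mean under 1 RPKM, and as grey ticks with each library left out in turn. PHE1 (0.78) and AGL62 (0.54) lie farthest from 0, and their ticks spread from 0.41 to 1.16 and from 0.29 to 0.80.

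The 13 other type I MADS-box genes that were listed mostly had higher values in stk. They were chosen with earlier results of these data known, so their counts do not stand for the whole family. Many of them are expressed in the central cell or endosperm, and 9 were under the level filter. Of these 13 genes, 10 were higher in stk without overlap between the genotypes, against 17.3% of loci with any reads, and 0 were lower, against 23.7%. Without stk replicate 1 the higher order held for 11 of 13, against 22.2%. AGL92 is counted among them with 2 and 1 reads in stk, against 0 and 0 in wild type, a difference that was not detectable at this depth. The median log2 difference of the 13 genes was 0.24, against -0.03. Of the 4 genes above the level filter, 2 had an unadjusted limma p under 0.05, both with stk higher, against 5.66% of all loci tested. None passed after adjustment. AGL40 was at 3.55 and 3.70 RPKM in stk, against 1.36 and 2.005 in wild type, with a log2 difference of 0.80 (limma unadjusted p = 0.00372, adjusted p = 0.415). AGL35 was at 3.24 and 2.94 in stk, against 1.97 and 1.01 in wild type, with a difference of 0.74 (limma unadjusted p = 0.0155, adjusted p = 0.513). AGL80, which specifies the central cell, was the exception among the better expressed genes, at 1.42 and 1.13 RPKM in stk, against 1.31 and 1.31 in wild type. Most of the others stood on few reads. AGL90 was at 0.578 and 0.432 in stk, against 0.122 and 0.0986 in wild type, but 65.3% of its 50-base stretches also fitted elsewhere, as did 62.1% of those of AGL36, so these genes are uncertain.

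**Figure D3:**
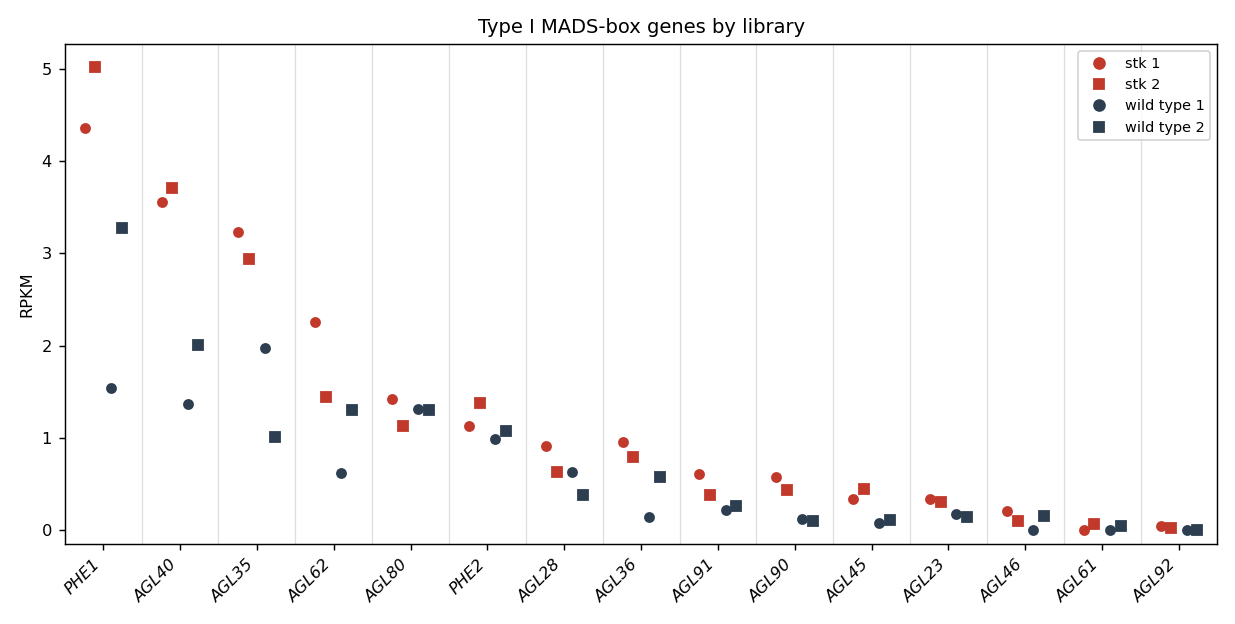
RPKM (vertical axis) of PHE1, AGL62 and 13 other type I MADS-box genes, in order of mean level, in stk (red) and wild-type (dark) libraries, with circles for replicate 1 and squares for replicate 2. Both red points lie above both dark points for PHE1, AGL62 and 10 of the other 13 genes, AGL92 on 3 reads or fewer in each library, and overlap with them for AGL80, AGL46 and AGL61.

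In the HAIKU pathway, IKU1 was well expressed, MINI3 weakly and IKU2 hardly at all. IKU1 (AT2G35230, chr2:14842293-14844434) was at 10.4 and 9.52 RPKM in stk, against 11.7 and 9.98 in wild type, almost all of it from the first of its 2 gene models. The groups overlapped, with a log2 difference of -0.11 and a standard error of 0.15 (limma adjusted p = 0.832). Without wild-type replicate 1 the difference was -0.00. MINI3 (AT1G55600, chr1:20774046-20776294) was at 0.604 and 0.528 RPKM in stk, against 0.282 and 0.292 in wild type, from 27 and 26 reads in stk and 7 and 9 in wild type. Replicates were close within each genotype and the groups did not overlap, by a ratio of 1.97, yet the counting interval of wild-type replicate 1 reached 0.582 RPKM. MINI3 was under the level filter. With a lower filter, at a mean of 0.1 RPKM, its log2 difference of 0.28 had an adjusted p of 0.583 by limma. IKU2 (AT3G19700, chr3:6843662-6847275) had 0 and 3 reads in stk, against 0 and 5 in wild type. A count of 0 was taken to allow 3 reads, which is less than the upper end of the exact interval. By that limit the level could be up to 0.0284 RPKM in stk replicate 1 and 0.0511 in wild-type replicate 1. No difference was detectable at this depth. The IKU2 model overlaps a neighbouring gene model by 307 bases from end to end, introns included.

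Of 6 partners of this pathway and other seed size genes, 5 passed the level filter, and the median log2 difference of all 6 was -0.12, against -0.03 over the loci with any reads. Both stk libraries lay below both wild-type libraries for 4 genes, against 23.7% of those loci, and above them for 1, against 17.3%. KLU, a cytochrome P450 that promotes organ and seed growth, was at 6.86 and 5.17 RPKM in stk, against 12.9 and 7.69 in wild type. It was the 1 gene of the 5 tested with an unadjusted p under 0.05 (limma unadjusted p = 0.0489, adjusted p = 0.54). With stk lower, 3.53% of all loci tested had such a p. AUXIN RESPONSE FACTOR 2 (ARF2), a repressor of seed growth, was at 92.9 and 89.6 in stk, against 107 and 94.5 in wild type. APETALA2 (AP2), which limits seed size from the maternal tissue, was at 27.1 and 26.1 in stk, against 27.7 and 29.4 in wild type.

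Levels of genes that mark the tissues in the samples were read beside these values. Their part in the differences above was not tested. Among 5 endosperm markers the summed level was 57.7 to 60.8 RPKM in stk, against 55.6 to 60.5 in wild type. ICE1, which is expressed widely, made up most of each sum, and SUC5 most of the rest. ICE1 was at 43.1 and 38.2 in stk, against 45.6 and 39.5 in wild type. The sucrose carrier SUC5 was at 14.5 and 15.8 in stk, against 10.3 and 12.1 in wild type (limma unadjusted p = 0.0372, adjusted p = 0.515), and EDE1, a microtubule protein, at 2.64 and 2.59 in stk, against 3.95 and 2.77 in wild type. ZHOUPI (ZOU), a defining endosperm factor, was at 0.167 and 0.454 RPKM in stk, against 0.200 and 0.403 in wild type, so replicate 1 was the lower library in both genotypes. The central cell markers AGL80 and AGL61 summed to 1.198 to 1.42 RPKM in stk, against 1.31 to 1.36 in wild type, and AGL61 was at 0 in replicate 1 of each genotype. The 5 egg cell and synergid markers summed to 5.23 to 5.30 in stk, against 2.95 to 3.23 in wild type. Of these, EC1.4 was at 1.96 and 1.93 in stk, against 1.23 and 1.11 in wild type (limma unadjusted p = 0.0173, adjusted p = 0.513), and EC1.1 at 1.53 and 1.96 in stk, against 1.04 and 1.74 in wild type. EC1.3, under the level filter, was at 1.04 and 0.864 in stk, against 0.156 and 0 in wild type, from 12 and 11 reads in stk and 1 and 0 in wild type. The 5 embryo markers were all under the filter and summed to 1.03 to 1.48 in stk, against 2.14 to 2.25 in wild type, with FUS3 at 0.759 and 0.732 in stk, against 0.854 and 1.48 in wild type. LEC1 was at 0.0699 and 0.349 in stk, against 1.01 and 0.659 in wild type, and WOX2 at 0.116 and 0.140 in stk, against 0.208 and 0.0558 in wild type.

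In the maternal tissues around the endosperm, 5 ovule and seed coat markers summed to 104 to 118 RPKM in stk, against 55.4 to 55.6 in wild type. Most of each sum came from BANYULS (BAN). The paper proposes that STK represses BAN directly, so these sums were not read as amounts of tissue. Of the 5 markers, 4 had stk libraries above wild type without overlap, against 17.3% of loci with any reads. BAN, the anthocyanidin reductase of the seed coat, was at 77.4 and 89.8 in stk, against 36.9 and 39.8 in wild type (limma unadjusted p = 0.000422, adjusted p = 0.249). The transporter TT12 was at 13.1 and 15.01 in stk, against 5.69 and 6.26 in wild type (limma unadjusted p = 0.000368, adjusted p = 0.249). INNER NO OUTER (INO), an outer integument factor, was at 8.05 and 7.22 in stk, against 8.24 and 5.86 in wild type. The 3 pollen markers VGD1, AGP6 and AGP11 summed to 419 to 498 in stk, against 487 to 532 in wild type. The 3 tapetum markers summed to 35.1 to 95.4 in stk, against 50.5 to 67.1 in wild type. In stk, replicate 1 stood apart there through A9, at 75.3 and 18.4 in stk, against 30.8 and 23.9 in wild type, while AMS was at 17.8 and 14.7 in stk, against 33.7 and 24.1 in wild type (limma unadjusted p = 0.0103, adjusted p = 0.502), and MS1 at 2.34 and 2.03 in stk, against 2.63 and 2.49 in wild type.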

How the data were processed

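RNA-Seq libraries from 2 stk and 2 wild-type replicates, prepared with the TruSeq RNA Sample Prep kit, were analysed at the level the authors deposited, RPKM per gene model. The authors trimmed reads, mapped them to TAIR10 in CLC Genomics Workbench with at most 2 mismatches, and shared reads that fitted several places among them. Per the submitters' processing notes FastQC was used. Reads shared between like genes make their values less certain. Enrichment tables hold the authors' own findings and were not used.

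RPKM values of the models of a locus were added (35182 models, 27206 loci). Reads behind each value were recovered from the RPKM steps and exon lengths, and all 40 values of the members came out whole within 0.1 read. The test was limma 3.58.1 in R 4.3.3 on log2(RPKM + 1) without a block, for loci with a mean of at least 1 RPKM, and was checked on simulated data. The labels name the replicates biological but do not say that equal numbers pair them.

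The members and gene lists were chosen with earlier results of these data known. Besides the members and STK, the text names the 3 genes of highest mean level in each list and each listed gene with an unadjusted p of at most 0.05. CLF, PHE2, AGL90, AGL36, AGL92, ZOU, MPC and the other genes in the plot of type I MADS-box genes were added after their values were seen. Upstream sequence was searched with 3 motif patterns in 2 window lengths, 6 searches in all. The motifs and sequences shown were chosen after the hits were seen. A relaxed CArG pattern was found in 5 of 10 members and 15.9% of all 250-base windows. In 1000-base windows the CArG box was in 1 member and 7.28%, the relaxed pattern in 7 and 40.3%, and TTGAC in 10 and 88.2%.

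Alternatives covered the pseudocount, level filter, single models, quantile normalization, removal of a length trend, a variance trend, a replicate block, each library left out, and a weighted test on proportions of the kind named by the study. The weighted test took summed locus RPKM as counts and the RPKM sum of a library as its total, not the read numbers. It is therefore not a rerun of the study's own test. Its form with a t reference was planned. A form with a normal reference was added after both had been computed and set beside p-values published with the study, and is not independent of them. The crossed block and the counts of non-overlapping genes without a library were also added after the data were seen.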

Additional observations from a re-analysis of the deposited data

How the results depend on the processing

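Over all loci, the count passing an adjusted p of 0.05 was 0 (1749 at an unadjusted p under 0.05), against 2 with single gene models, 5 with quantile normalization, 4 with the length trend removed and 1 with a variance trend. It ranged from 0 to 1570 with 1 library left out, 324 without stk replicate 1 and 1570 without stk replicate 2, when the lone stk library is assumed to vary like the wild-type ones. The thresholds of the study, applied to limma p-values of summed loci, gave 590 loci higher and 62 lower in stk. With 1 library left out the higher count ranged from 204 (without wild-type replicate 1) to 1232 (without stk replicate 2), with 258 without stk replicate 1, and the lower count from 88 to 176 (without stk replicate 1), with 150 without wild-type replicate 2. The lower count was 135 with a filter of 0.1 RPKM or none and 272 with single gene models. The weighted test on proportions, run on summed locus RPKM and not on reads, gave 5 higher, 1 lower and 0 past adjustment with a t reference. Its form with a normal reference, chosen after both had been seen, gave 90 higher, 14 lower and 67 past adjustment.

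Same-numbered libraries did not deviate together (correlation -0.127 over 19044 loci), and the replicate block gave 0 loci past adjustment, 433 higher and 63 lower, with no call changed among the members. With crossed numbers, chosen after seeing the data, the block gave 921 loci past adjustment.

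FWA, PHE1 and AGL62 were higher in stk under every alternative run, 15 for each gene. MEA and MINI3 were also higher in each of their 10, on few reads, with lowest differences of 0.09 and 0.25. IKU1 was at -0.00 without wild-type replicate 1 and -0.02 with the length trend removed. FIE and MSI1 were each at 0.01 with the length trend removed, and with 1 library left out ranged from -0.17 to 0.06 and from -0.23 to 0.11. A pseudocount of 0.1 moved MEA to 0.62, FIS2 to 0.15, MINI3 to 0.78 and IKU2 to -0.21. With all 4 libraries kept, the limma adjusted p of PHE1 was 0.0274 with the crossed block and at least 0.337 in the other fits. That of AGL62 was at least 0.305, the lowest with the crossed block. The count of members with stk higher ranged from 4 to 7 with 1 library left out, the 7 without stk replicate 2, against 38.8% of all loci with any reads. Depth limits MEA, FIS2, IKU2 and MINI3, which had at most 53 reads in any library.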
